A study of Mus musculus with 15 samples.

Results

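Sarcomere, Z-disc and M-band genes, 40 in all of the 55487 genes counted, were followed in the left ventricle of mice with chronic kidney disease. The members are the genes of a named list of titin, M-band, thick filament, thin filament, Z-disc and associated proteins, matched by gene symbol through the Ensembl identifier. All 40 were found, and 39 had enough counts to be tested. The exception was Myoz1, which encodes an isoform of the calcineurin-binding protein calsarcin and lay between 0 and 0.387 CPM in every library.

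The kidney disease group was 7 male mice carrying a mutation of Col4a5, a type IV collagen gene of the glomerular basement membrane, and the controls were 8 male wild-type littermates housed with them. All ate normal chow and were killed at 225 days, when the mutants, per the labels, stood at the equivalent of an advanced stage of human kidney disease. The labels give the genotype as a knockdown while the study's design text calls it a knockout, and isoflurane appears beside ketamine/xylazine as the anaesthetic. The labels name no tissue to which the mutation is limited. RNA came from a piece of the left ventricular free wall, so the tissue holds other cells beside cardiomyocytes.

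Each sarcomere runs between a pair of Z-discs, in which alpha-actinin and a scaffold of LIM and PDZ domain proteins hold the ends of the actin thin filaments. Myosin thick filaments lie in the middle and are crosslinked at the M-band by myomesins and obscurin-like protein, while titin spans from Z-disc to M-band and acts as a spring and a ruler. Troponin and tropomyosin on the thin filament make contraction depend on calcium, and mutations in many of these genes are known causes of human cardiomyopathy.

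Promoter sequences are shown for 5 members that the results below return to, because MEF2 and serum response factor, which binds the CArG box, are textbook regulators of muscle genes. Windows of 300 bases, 250 before and 50 after an annotated start, were read from RefSeq (GRCm38.p6), where 32 member genes had 44 windows. Both strands were searched for the MEF2 site and for the CArG box, each 10 bases long. Capitals mark the motif, and each sequence runs 5′ to 3′ on the gene's strand.

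Ttn (titin), MEF2 site, chr2:76982498-76982797, minus strand: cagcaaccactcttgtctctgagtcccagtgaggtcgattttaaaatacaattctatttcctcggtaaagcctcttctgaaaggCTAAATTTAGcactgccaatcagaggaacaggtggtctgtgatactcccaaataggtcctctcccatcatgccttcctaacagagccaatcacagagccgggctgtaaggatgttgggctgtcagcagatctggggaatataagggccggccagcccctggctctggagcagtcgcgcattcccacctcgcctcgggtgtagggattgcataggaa
Mybpc3 (cardiac myosin-binding protein C), MEF2 site, chr2:91117894-91118193, plus strand: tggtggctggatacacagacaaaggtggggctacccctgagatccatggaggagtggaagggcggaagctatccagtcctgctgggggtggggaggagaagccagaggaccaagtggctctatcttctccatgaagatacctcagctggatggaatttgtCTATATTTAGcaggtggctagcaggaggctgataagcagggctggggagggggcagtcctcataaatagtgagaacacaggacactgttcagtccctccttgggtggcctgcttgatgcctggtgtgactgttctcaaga
Synpo2l (a Z-disc protein), MEF2 site, chr14:20668305-20668604, minus strand: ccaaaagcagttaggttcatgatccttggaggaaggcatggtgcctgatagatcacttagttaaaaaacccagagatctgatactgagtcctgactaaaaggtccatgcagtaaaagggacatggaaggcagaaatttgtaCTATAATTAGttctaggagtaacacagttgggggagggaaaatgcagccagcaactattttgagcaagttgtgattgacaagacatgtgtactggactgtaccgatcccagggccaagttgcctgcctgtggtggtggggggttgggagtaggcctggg
Myom1 (myomesin 1), CArG box, chr17:71019307-71019606, plus strand: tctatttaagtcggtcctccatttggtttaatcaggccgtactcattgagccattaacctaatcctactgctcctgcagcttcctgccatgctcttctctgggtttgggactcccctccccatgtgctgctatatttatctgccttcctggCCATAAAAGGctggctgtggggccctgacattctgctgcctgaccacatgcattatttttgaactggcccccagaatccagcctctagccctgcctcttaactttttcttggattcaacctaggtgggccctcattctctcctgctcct
Ldb3 (the Z-disc protein ZASP), CArG box, chr14:34588632-34588931, minus strand: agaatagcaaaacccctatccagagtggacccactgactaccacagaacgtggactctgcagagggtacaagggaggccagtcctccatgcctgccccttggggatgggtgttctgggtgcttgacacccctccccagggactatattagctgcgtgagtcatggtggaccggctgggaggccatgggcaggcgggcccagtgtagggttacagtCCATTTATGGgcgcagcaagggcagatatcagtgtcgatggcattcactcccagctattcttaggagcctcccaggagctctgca

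The site begins at -166 relative to the start in Ttn, at -90 in Mybpc3, at -109 in Synpo2l, at -99 in Myom1 and at -35 in Ldb3. The Myom1 window, 71019307 to 71019606, lies inside the gene, which begins at 71002633. Its start is therefore an internal one and not the 5′ end of the gene. A MEF2 site lay in 7 of the 44 member windows (15.9%), from the 6 genes Fhl2, Mybpc3, Myom3, Myoz2, Synpo2l and Ttn, and in 3.19% of all 32851 windows. A CArG box lay in 6 of 44 (13.6%), from Fhl2, Ldb3, Myom1 and Nebl, and in 1.63% of all windows. One member window, counted under both motifs, held both, without overlap of the sites. Some genes have windows that overlap each other, so the windows are not independent, and a match is a description of the letters and not of binding.

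No member of the list of sarcomere, Z-disc and M-band genes was called changed in kidney disease. By edgeR's quasi-likelihood test with Benjamini-Hochberg adjustment over all 20718 genes tested, 0 of 39 members were higher and 0 were lower at the threshold of 0.05, where 1.28% of all genes were called, 0.811% higher and 0.473% lower. At an unadjusted p under 0.05 there were 5 members, as against 12.4% of all genes. The 39 log2 changes, kidney disease minus wild type, ran from -0.28 for Synpo2l to 0.22 for Pdlim3, with a median of -0.07. Over all genes the median was 0.00, and over the 1473 genes above 100 CPM it was -0.05. Of the members 26 were negative and 13 positive, while 48.8% of all genes were negative. In no member did the groups fail to overlap, which they did in 0.565% of all genes.

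The intervals bound the changes only within the edgeR fit without a covariate. With the mitochondrial share of counts as a term the estimate for Tpm2 was -0.41, outside its interval of -0.27 to 0.47. In that fit the estimates for Fhl2, Lmod3, Tnni3, Smyd1, Cryab and Pdlim3 also lay outside their intervals. Those for Tpm1 and Ttn lay just outside, and those for the other members lay inside. In the fit without a covariate, the 95% interval of the change lay wholly within 1.5-fold in either direction for 37 of 39 members. The exceptions were Tnni1, the slow skeletal and fetal troponin I, with -1.39 to 0.97, and Ankrd2, a muscle ankyrin repeat protein of the I-band, with -0.57 to 0.80. Since this is RNA of whole tissue, fewer cells of a type and less RNA per cell cannot be told apart.

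**Figure D1:**
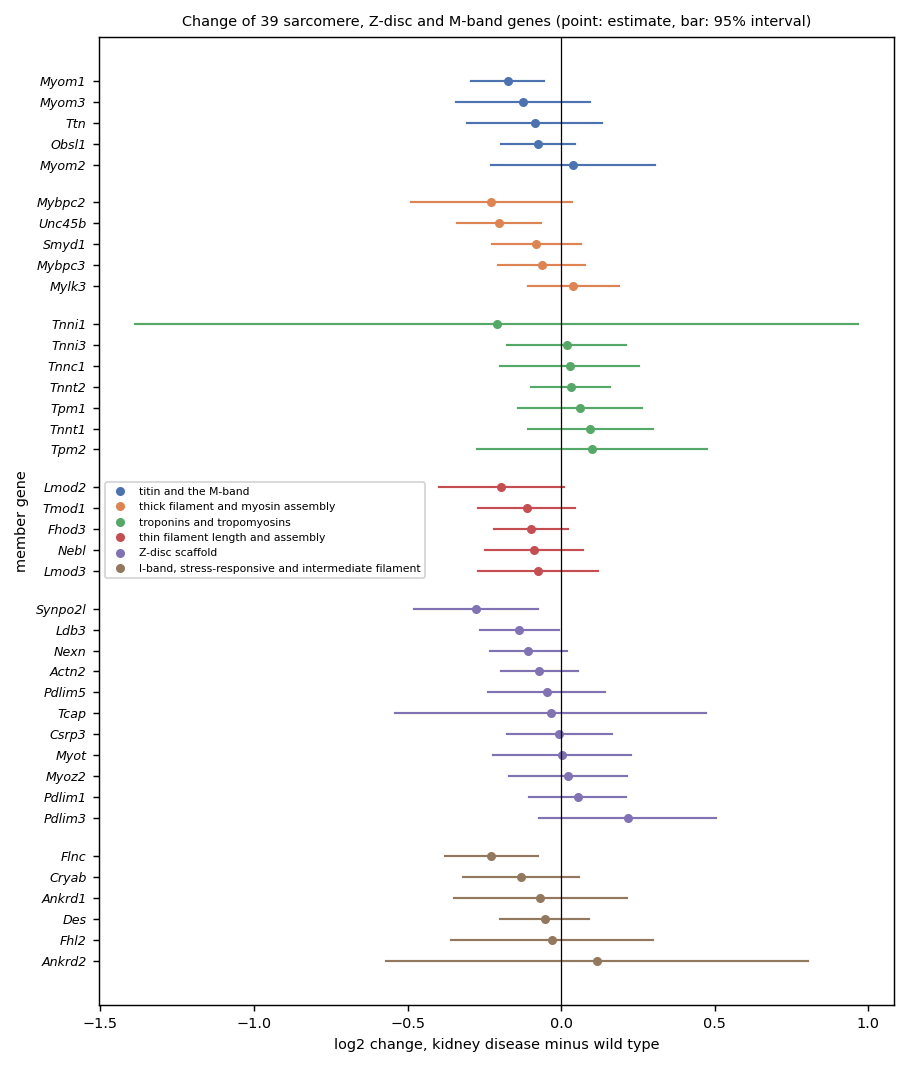
Log2 change (kidney disease minus wild type, horizontal axis) of the 39 tested members, listed vertically and coloured by role, each with its 95% interval from edgeR. All points lie between -0.28 and 0.22, and 5 intervals, those of Myom1, Unc45b, Synpo2l, Ldb3 and Flnc, do not cross 0.

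The libraries held 48748379 to 65519279 counts. They were larger in kidney disease by a two-sided exact permutation test (p = 0.0081, or 0.016 adjusted over both library measures tested). Mitochondrial genes took 11.6% ± 0.803 of the counts in the 7 kidney disease libraries and 12.9% ± 0.941 in the 8 of wild type (mean ± SD; p = 0.017 by the exact permutation test, 0.017 adjusted). Col4a5 lay at 13.5 ± 2.97 CPM (SD, n = 7) in kidney disease and 57.0 ± 4.93 (SD, n = 8) in wild type without overlap (log2 change -2.08, SE 0.11, edgeR adjusted p = 3.0e-09). The 10 cardiomyocyte markers were all abundant and none was called, with a median log2 change of -0.06 beside -0.07 for the members. Their sums were 80692 ± 4779 CPM (SD, n = 7) in kidney disease and 90308 ± 8136 CPM (SD, n = 8) in wild type, a difference that was not tested, and lay between 76448 and 86951 CPM in kidney disease and between 75587 and 102561 CPM in wild type. Myh6, at 27758 to 48456 CPM over the libraries, was the largest part of these sums. Of 10 macrophage markers 8 were higher, with sums of 424 to 598 against 309 to 370 CPM without overlap, and 4 of 8 fibroblast markers were higher. None of the endothelial (8), smooth muscle and pericyte (10) or erythroid (5) markers passed, with median log2 changes of 0.14, 0.02 and -0.56 in that order. The erythroid sums lay between 310 and 821 CPM in kidney disease and between 558 and 1073 CPM in wild type. The 7 atrial markers summed to 35.9 CPM in kidney disease 6 and 41.1 in wild type 5, and to at least 442 in each of the other libraries. The part of these differences in the members' values was not tested, beyond the fits named beside the results.

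Together the members took between 8.04% and 10.2% of the counts of a kidney disease library and between 8.16% and 10.2% of a wild-type one. Ttn, the longest member with 117334 exon bases, alone took between 3.52% and 5.71%, and between 3.57% and 5.99%. Levels per length, in RPKM (CPM per kilobase of exon), compare genes with each other. The 4 highest on this scale were Tnni3 (1697 RPKM), Tnnc1 (1660), Tpm1 (1212) and Mybpc3 (1131), and their order does not hold animal by animal, since Tnni3 and Tnnc1 overlap widely. Tcap, Tnnt2, Cryab, Fhl2, Actn2 and Des lay between 1004 and 617 RPKM, and Ttn was 11th, at 379. At the low end were Myom3 (0.651), Tnni1 (0.240), Ankrd2 (0.228) and Myoz1 (0.0855).

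**Figure D2:**
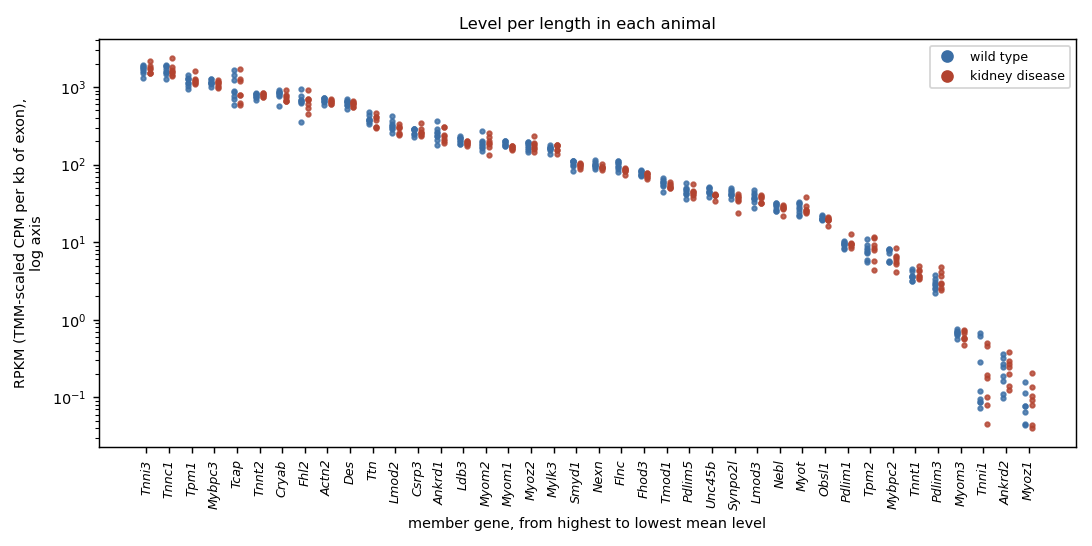
Level of each of the 40 members in each of the 15 animals, in RPKM on a log axis, with members ordered along the horizontal axis from highest to lowest mean. Blue points are wild type and red points kidney disease; values of 0 (Myoz1 only) cannot be drawn, and the groups overlap in every member from Tnni3 at 1697 RPKM down to Ankrd2 at 0.228.

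Among titin and the M-band proteins, 4 of 5 changes were negative and none passed, with a median of -0.09. The member of this group with the smallest p was Myom1 (ENSMUSG00000024049, chromosome 17, 71002633 to 71126856, GRCm38), which encodes myomesin 1, the main crosslinker of thick filaments at the M-band. Myom1 ran from 1603 to 1840.1 CPM (median 1722) in kidney disease and from 1802 to 2105 CPM (median 1937) in wild type. Every kidney disease animal lay below the wild-type mean and 4 lay below the lowest wild-type animal, but the groups overlapped. Its means were 1737 ± 93.1 CPM (SD, n = 7) against 1960.4 ± 126 (SD, n = 8), a log2 change of -0.17 (SE 0.06, edgeR adjusted p = 0.17), more than its pooled SD within groups of 0.09. DESeq2 gave -0.18 with an adjusted p of 0.026, and called Myom1 lower, where it called 1.53% of 17114 genes lower. In Myom1, 1.98% of the exon bases also belong to Myl12a.

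In the fit without a covariate, titin itself showed no difference between groups that stood out from the spread within them. Ttn (ENSMUSG00000051747, chromosome 2, 76703980 to 76982547, GRCm38) ran from 35071 to 54309.6 CPM (median 44507) in kidney disease and from 38549.9 to 55861 CPM (median 44200.3) in wild type. The lowest values came from kidney disease 2, 3 and 6 and the highest from wild type 7 and kidney disease 7. Its log2 change was -0.09 (SE 0.11, edgeR adjusted p = 0.82), with a 95% interval of -0.31 to 0.13. With the mitochondrial share of counts as a term it was -0.31 (unadjusted p = 0.0037, edgeR adjusted p = 0.084). It was 0.01 with an offset for gene length, and neither fit gave a call.

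The other M-band members were without a call as well. Myom2, the myomesin of adult fast muscle and heart, was chosen after its values were seen, and it ran from 1169 to 2267 CPM (median 1684) in kidney disease and from 1318 to 2388 CPM (median 1615) in wild type. Wild type 7 was the highest of all and the groups overlapped throughout, at a log2 change of 0.04 (SE 0.13, edgeR adjusted p = 0.95). Its ratio to Myom1 on the length-scaled log2 scale ran from -0.22 to 0.56 (median 0.20) in kidney disease and from -0.29 to 0.65 (median -0.04) in wild type, so that the pair was about equally abundant. Obsl1 (obscurin-like protein) and Myom3 (a further myomesin) had changes of -0.07 and -0.12, with edgeR adjusted p-values of at least 0.68.

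In the thick filament group, 4 of 5 changes were negative and none passed, with a median of -0.08. Unc45b (ENSMUSG00000018845, chromosome 11, 82910550 to 82943403, GRCm38) encodes a chaperone that folds the myosin head. Unc45b ran from 153 to 189.4 CPM (median 181) in kidney disease and from 172 to 230.3 CPM (median 202) in wild type. All 7 kidney disease animals lay below the wild-type mean, 6 of them within 181 to 189.4 CPM and kidney disease 6 apart at the lowest value. Its means were 179 ± 11.7 CPM (SD, n = 7) against 206 ± 19.4 (SD, n = 8), a log2 change of -0.20 (SE 0.07, edgeR adjusted p = 0.16). Without wild type 7, the lowest of its group, the change was -0.24 with an edgeR adjusted p of 0.043, in a fit that called 0.939% of genes lower. Of its exon bases 9.04% also belong to Slfn5os or Unc45bos, and whether counting used strand is not given in the sources used here.

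The cardiac and fast forms of myosin-binding protein C differed widely in level and neither was called. Mybpc3, the cardiac form that tunes crossbridge cycling, ran from 4021 to 5149 CPM (median 4669) in kidney disease and from 4193 to 5318 CPM (median 4749) in wild type. Its log2 change was -0.06 (SE 0.07, edgeR adjusted p = 0.79). Mybpc2, the fast skeletal form, ran from 15.1 to 30.1 CPM (median 21.7) in kidney disease and from 19.95 to 29.9 CPM (median 27.4) in wild type. Its log2 change of -0.23 (SE 0.13, edgeR adjusted p = 0.50) was among the 4 largest in size of the members, yet kidney disease 7 had the highest value of all animals. With the mitochondrial share of counts as a term it was -0.47 (unadjusted p = 0.0027, edgeR adjusted p = 0.079). Mybpc3 exceeded Mybpc2 per length by 175-fold (geometric mean over 15 animals). Mylk3, the cardiac myosin light chain kinase, and Smyd1, a methyltransferase that takes part in thick filament assembly, had changes of 0.04 and -0.08 (edgeR adjusted p at least 0.72).

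**Figure D3:**
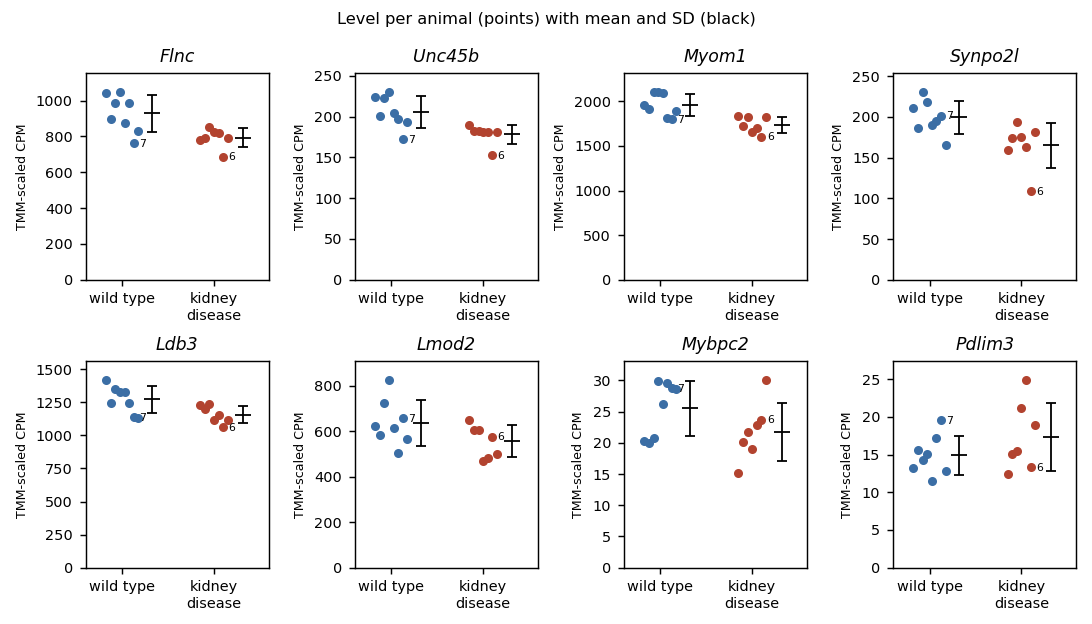
TMM-scaled CPM (vertical axis, from 0) of 8 members in each animal, blue for wild type and red for kidney disease, with the mean and SD in black; wild type 7 and kidney disease 6 are numbered. The groups overlap in all 8, and kidney disease 6 is the lowest animal in Flnc (687), Unc45b (153), Myom1 (1603), Synpo2l (109) and Ldb3 (1061).

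Of the 7 troponins and tropomyosins, 6 had positive changes and none passed, with a median of 0.03. These signs depended in part on 1 library. Without kidney disease 6, Tnni3 was at -0.045, Tnnc1 at -0.074 and Tpm1 at -0.0089, while Tnnt2, Tnnt1 and Tpm2 stayed positive. Tnni3, the cardiac troponin I that inhibits contraction until calcium binds, ran from 3081 to 4421 CPM (median 3486) in kidney disease and from 2674 to 3995 CPM (median 3588) in wild type. The wild-type range began lower and the kidney disease range ended higher, and the log2 change was 0.02 (SE 0.09, edgeR adjusted p = 0.97). Tnnc1, the calcium sensor troponin C, ran from 1455 to 2463 CPM (median 1619) in kidney disease and from 1334 to 1975 CPM (median 1695) in wild type. Kidney disease 6 was highest and wild type 7 lowest, with a log2 change of 0.03 (SE 0.11, edgeR adjusted p = 0.96).

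The tropomyosins were without a call as well. Tpm1, the main cardiac tropomyosin, ran from 6993 to 10337 CPM (median 7833) in kidney disease and from 6045 to 9289 CPM (median 7741) in wild type, with a log2 change of 0.06 (SE 0.10, edgeR adjusted p = 0.87). Kidney disease 6 stood apart as the highest of its group. Tpm2, the beta-tropomyosin of skeletal and smooth muscle, was chosen after its values were seen, and it ran from 12.8 to 33.7 CPM (median 24.4) in kidney disease and from 16.3 to 32.1 CPM (median 22.4) in wild type. Its log2 change was 0.10 (SE 0.18, edgeR adjusted p = 0.89) and its pooled SD within groups was 0.42. Tnnt2 and Tnnt1, the cardiac and slow skeletal troponin T, had changes of 0.03 and 0.10 (edgeR adjusted p at least 0.78).

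The fetal and slow isoforms were rare beside the adult cardiac ones in every animal. Tnni1, which the heart uses before birth, had 10 to 130 counts per library and ran from 0.162 to 1.81 CPM (median 0.642) in kidney disease and from 0.259 to 2.43 CPM (median 0.389) in wild type. Its log2 change of -0.21 (SE 0.56, edgeR adjusted p = 0.93) has a wide interval, and its values were spread over a like range in both groups. With the mitochondrial share of counts as a term the change was -1.23, without a call. The log2 ratio of Tnni1 to Tnni3 per length ran from -15.54 to -11.71 (median -13.04) in kidney disease and from -14.68 to -10.91 (median -13.89) in wild type. That of Tnnt1 to Tnnt2 ran from -7.93 to -7.38 (median -7.65) in kidney disease and from -7.90 to -7.40 (median -7.80) in wild type. That of Tpm2 to Tpm1 ran from -8.14 to -6.54 (median -7.32) in kidney disease and from -8.00 to -6.40 (median -7.29) in wild type. All 7 isoform ratios computed, which do not depend on how libraries are scaled, overlapped between groups. Tnni3 exceeded Tnni1 by 10107-fold and Tnnt2 exceeded Tnnt1 by 207-fold per length. Of 12 markers of fast skeletal muscle, 7 had enough counts for a test and none was called. Neb (nebulin) lay between 17.5 and 44.9 CPM (median 28.4) and made up most of their sum, while each of the other 11 stayed at or below 1.72 CPM and Tnnc2 was at 0 in every library. The sum lay between 25.3 and 41.2 CPM in kidney disease and between 21.5 and 49.8 CPM in wild type.

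All 5 genes of thin filament length and assembly had negative changes, with a median of -0.10, and none passed. With the mitochondrial share of counts as a term 3 of the 5 turned positive, Lmod3 at 0.16, Tmod1 at 0.035 and Nebl at 0.0074. Lmod2, a leiomodin that lengthens thin filaments at their pointed ends, ran from 469 to 650.0 CPM (median 577) in kidney disease and from 503 to 826 CPM (median 619) in wild type. Of the kidney disease animals 6 lay below the wild-type mean and 3 below the lowest wild-type animal, while wild type 4 was highest. Its log2 change was -0.20 (SE 0.10, edgeR adjusted p = 0.43). The other members of the group were Tmod1, the pointed-end cap tropomodulin, Fhod3, a formin of thin filament assembly, Nebl (nebulette) and Lmod3. They had changes of -0.11, -0.10, -0.09 and -0.08 in that order (edgeR adjusted p at least 0.54). Tmod1 shares 32.6% of its exon bases with Tstd2, so its count is uncertain.

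Of the 11 tested Z-disc scaffold genes, 7 had negative changes and none passed, with a median of -0.03. Synpo2l (ENSMUSG00000039376, chromosome 14, 20658946 to 20668354, GRCm38), which encodes an actin-associated protein of the Z-disc also called CHAP, had the most negative change of all members. Synpo2l ran from 109 to 193.9 CPM (median 174) in kidney disease and from 166 to 231 CPM (median 198.1) in wild type. All 7 kidney disease animals lay below the wild-type mean and 3 below the lowest wild-type animal, with kidney disease 6 far below the rest. Its means were 165 ± 27.3 CPM (SD, n = 7) against 199.9 ± 20.3 (SD, n = 8), a log2 change of -0.28 (SE 0.10, edgeR adjusted p = 0.20). With the atrial marker score as a term the change was -0.33 with an edgeR adjusted p of 0.024, in a fit that called 0.932% of genes lower. Without kidney disease 6 it was -0.20 (edgeR adjusted p = 0.23).

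Ldb3, whose product ZASP binds alpha-actinin, was the other Z-disc gene with an unadjusted p under 0.05. Ldb3 ran from 1061 to 1236 CPM (median 1152) in kidney disease and from 1132 to 1419 CPM (median 1288) in wild type, and all 7 kidney disease animals lay below the wild-type mean. Its log2 change was -0.14 (SE 0.06, edgeR adjusted p = 0.36). The unadjusted edgeR p of 0.038 rose to 0.065 without kidney disease 6 and to 0.080 without wild type 1. With the mitochondrial share of counts as a term it was 0.49. It stayed under 0.05 without kidney disease 1, 2 or 3. Pdlim3, a PDZ and LIM domain protein of the Z-disc, had the most positive change of all members, 0.22 (SE 0.14, edgeR adjusted p = 0.58). It ran from 12.4 to 24.9 CPM (median 15.5) in kidney disease and from 11.5 to 19.5 CPM (median 14.7) in wild type. Kidney disease 4, 5 and 7 were the highest of their group and wild type 7 the highest of its own, and the groups overlapped. The change was 0.11 without kidney disease 5, 0.019 with the library total as a term and -0.15 with the mitochondrial share of counts as a term.

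Tcap, chosen after its values were seen, encodes telethonin, which caps titin at the Z-disc. It ran from 548 to 1617 CPM (median 755) in kidney disease and from 548 to 1584 CPM (median 833) in wild type. The range spanned 2.95-fold in kidney disease and 2.89-fold in wild type, and the group change of -0.03 (SE 0.24, edgeR adjusted p = 0.98) was small beside it. The other 7 tested genes of this group ran from -0.11 for Nexn to 0.05 for Pdlim1 (edgeR adjusted p at least 0.50). They were Actn2, the alpha-actinin that crosslinks thin filaments, the LIM domain genes Csrp3, Pdlim1 and Pdlim5, Myoz2 (the cardiac calsarcin), Myot (myotilin) and Nexn (nexilin).

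In the group of I-band, stress-responsive and intermediate filament genes, 5 of 6 changes were negative and none passed, with a median of -0.06. Flnc (ENSMUSG00000068699, chromosome 6, 29433256 to 29461883, GRCm38) encodes filamin C, an actin crosslinker of the Z-disc and the costamere, and had the smallest p of all members. Flnc ran from 687 to 852 CPM (median 793) in kidney disease and from 762 to 1047 CPM (median 941) in wild type. Every kidney disease animal lay below the wild-type mean, 1 of them below the lowest wild-type animal. Its means were 792 ± 52.5 CPM (SD, n = 7) against 928 ± 104 (SD, n = 8), a log2 change of -0.23 (SE 0.07, edgeR adjusted p = 0.15). DESeq2 called Flnc lower, at -0.23 with an adjusted p of 0.046, where it called 1.53% of genes lower. So did edgeR without wild type 7, the lowest of its group in Flnc, at -0.26 with an adjusted p of 0.040. That fit called 0.939% of genes lower.

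The load-responsive genes of the group were without a call. Ankrd1, which encodes a cardiac ankyrin repeat protein that binds titin and is induced by stretch, ran from 552 to 893 CPM (median 668) in kidney disease and from 510.5 to 1049 CPM (median 712) in wild type. The groups overlapped over nearly their whole range, with a log2 change of -0.07 (SE 0.13, edgeR adjusted p = 0.90). Fhl2, a LIM domain protein of the titin N2B region chosen after its values were seen, ran from 859 to 1711 CPM (median 1284) in kidney disease and from 669.9 to 1812 CPM (median 1276) in wild type. Wild type 7 had the lowest Fhl2 of all animals, and the log2 change was -0.03 (SE 0.16, edgeR adjusted p = 0.97). Cryab, a small heat shock protein that binds desmin and titin, Des, the muscle intermediate filament protein desmin, and Ankrd2 had changes of -0.13, -0.05 and 0.12 (edgeR adjusted p at least 0.62). Cryab shares 17.0% of its exon bases with Hspb2.

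For most members the spread between animals of a group was larger than the group change. Over the 37 members above 1 CPM, the pooled SD within groups on the log2 scale ran from 0.09 for Myom1 to 0.56 for Tcap, with a median of 0.19. The size of the group change exceeded this SD in 7 members, which were Myom1, Unc45b, Fhod3, Ldb3, Nexn, Synpo2l and Flnc. A single axis held 48.8% of the variance within groups. Tpm2, Pdlim3, Ttn and Mybpc2 weighed most at one end of the axis and Tcap, Fhl2 and Lmod3 at the other. Kidney disease 4, 5 and 7 and wild type 6 and 7 lay far towards the Ttn end, and both groups had animals at both ends, with wild type 1 and kidney disease 1 farthest on the Tcap side.

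**Figure D4:**
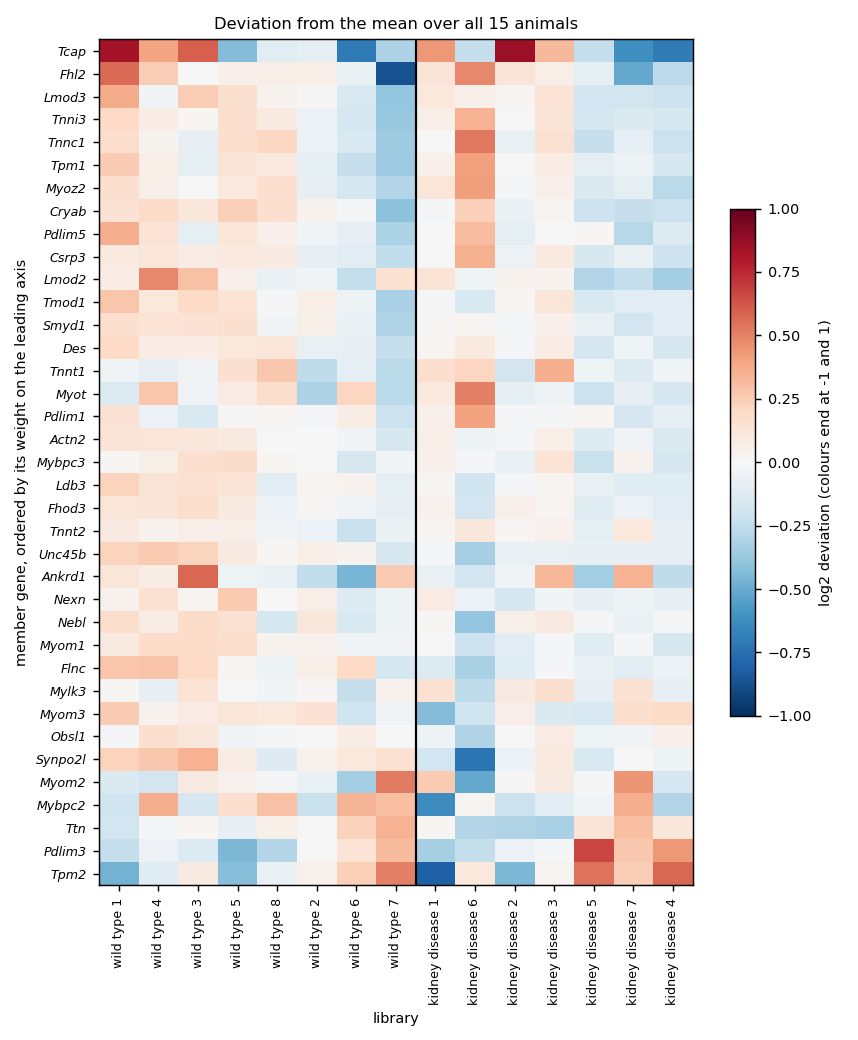
Log2 deviation of 37 members (rows, ordered by weight on the leading axis) from their mean over all 15 animals (columns, wild type left of the black line, each group ordered by its score on the axis); red is higher, blue lower, and colours end at -1 and 1. Tcap and Tpm2 tend to run in opposite directions, with Tcap from 548 to 1617 CPM in kidney disease, and both weigh strongly on the axis that orders the columns. This does not hold in every animal, since wild type 5 was low in both (Tcap 662 CPM, Tpm2 16.9 CPM).

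The members' deviations also went with exon length, in a direction that differed between libraries. In each library the deviation of the members from their mean was ranked against exon length, as a description with no test, since genes are not independent replicates and share the library. Spearman's rho over the 37 members ran from -0.54 in kidney disease 6 to 0.61 in kidney disease 5. Over all 8498 genes above 10 CPM it ran from -0.55 in kidney disease 6 to 0.54 in wild type 7, and its sign was that of the members in 14 of 15 libraries. Libraries with positive and with negative values occurred in both groups. Length and the axis were not the same, since Tpm2 (2909 exon bases) and Mybpc2 (3611) weighed with Ttn at one end. With an offset for gene length no member passed, and 29 of 39 changes were negative.

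**Figure D5:**
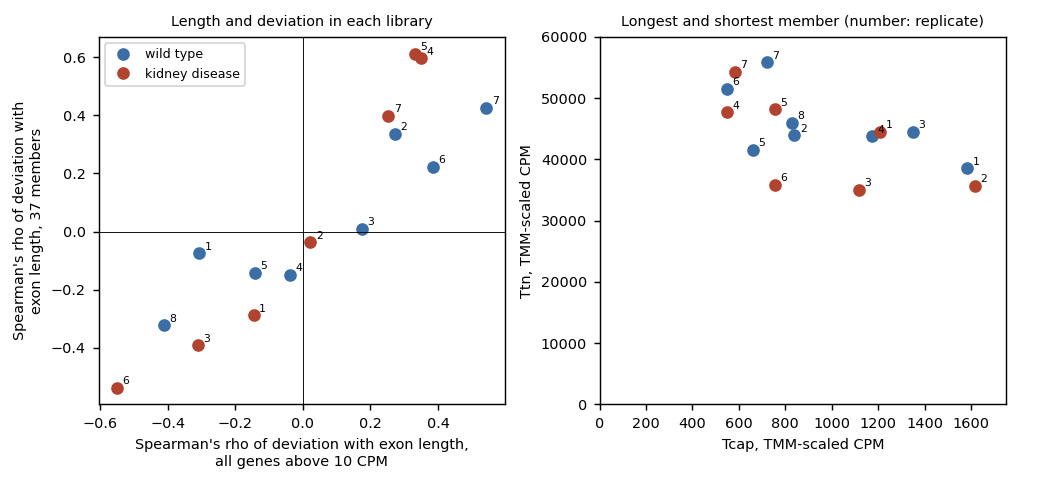
Left, Spearman's rho between exon length and log2 deviation in each library, over 37 members (vertical axis) and over 8498 genes above 10 CPM (horizontal axis). Right, the longest member, Ttn, against the shortest, Tcap, in TMM-scaled CPM, with the replicate number at each point; both groups spread along both panels, and wild type 6, the lowest of all in Tcap at 548 CPM, had 51533 CPM of Ttn.

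Most other ways of processing the counts also called no member, but they called few genes of any kind. The share over all genes was 1.28% without a covariate. With the library total as a term 0.00483% were higher and 0.029% lower, so a setting without a call says little about 39 members. Of 28 settings tried, 15 of which left out 1 library each, 25 called no member. The exceptions were DESeq2, the atrial score as a term and the fit without wild type 7. Their 5 calls, given above, were all lower in kidney disease. No setting called Ttn, a troponin or a tropomyosin. With the mitochondrial share of counts as a term the members' median turned to 0.02 and 17 of 39 changes were negative, and no member passed. In that fit Ldb3 was at -0.046 and Lmod2 at -0.051, Tnni3 at 0.23 and Tpm1 at 0.26, and Tcap at 0.46 and Fhl2 at 0.35. With the library total as a term 25 were negative, and without both libraries poor in atrial transcripts 32 were, again with no call.

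Genes of the same structures or gene families that are not members were counted from a list of 60, of which 59 were in the annotation and 55 had enough counts. Of these 1 was higher and 0 were lower, with a median of -0.04 and 33 negative changes, where 0.811% of all genes tested were higher and 0.473% lower. The gene called was Pdlim2, a PDZ and LIM domain protein of the family of Pdlim1, Pdlim3 and Pdlim5. Pdlim2 ran from 8.34 to 11.2 CPM (median 9.56) in kidney disease and from 5.83 to 7.78 CPM (median 6.99) in wild type. All kidney disease animals lay above all wild-type animals, at 9.46 ± 0.953 CPM (SD, n = 7) against 7.06 ± 0.636 (SD, n = 8) and a log2 change of 0.42 (SE 0.08, edgeR adjusted p = 0.012). Its level per length was 1.82 RPKM, below 3.12 for Pdlim3 and 9.53 for Pdlim1. The list is not limited to genes of cardiomyocytes, since it holds Lmod1, a smooth muscle and pericyte marker. Which cells of the tissue hold Pdlim2 was not tested.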

How the data were processed

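RNA of the left ventricle from 15 mice was sequenced after removal of ribosomal RNA, 1 library per animal, and the study's design text calls the animals biological replicates. The submitters' processing notes name STAR 2.7.9a, featureCounts 2.0.3, Subread and bcl2fastq as tools and GRCm38 as the genome; counting options: not given in the sources used here. The deposited tables hold raw counts per gene, with CPM and FPKM that the authors derived from them. The deposited CPM and FPKM were recomputed from the counts within a relative tolerance of 1e-06 and not used further. Symbols and the exon bases shared with other genes came from GENCODE M21 on GRCm38, which held 55227 of 55487 identifiers. Positions and exon lengths came from the deposited tables.

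Counts were tested with edgeR 4.0.16 (R 4.3.3): filterByExpr with a minimum count of 10, TMM scaling, a quasi-likelihood F test of group with no covariate in all 15 libraries, and Benjamini-Hochberg adjustment over 20718 genes with a threshold of 0.05. SEs and 95% intervals come from the same fit. CPM in the text are TMM-scaled, RPKM are these per kilobase of exon, and ± gives the SD over animals. Library measures were compared by exact permutation. The steps were tested on simulated counts. No pair of libraries was identical, and chi-square per degree of freedom was at least 8.44 in the 49 pairs within groups. Spread between animals, not counting error, sets the precision except for Ankrd2 and Myoz1.

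The members and all lists were chosen with earlier results of these data known. Values per animal are given for the 6 members with the smallest p, the 4 with the largest change, the 4 highest per length, and Ttn, Mybpc3, Tnni1 and Ankrd1. Tcap, Fhl2, Tpm2 and Myom2 were added after their values were seen. Of the other genes of the same structures or gene families, those past the threshold are named. Alternatives were DESeq2 1.42.0, limma-voom (limma 3.58.1), RLE or upper-quartile scaling, no filter, a minimum of 1 CPM in 7 libraries, leaving mitochondrial genes out, the mitochondrial share, the library total or an atrial marker score as a term, a replicate block, and leaving out each library. An offset for gene length and leaving out both libraries with the fewest atrial transcripts were chosen after seeing the data.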

Additional observations from a re-analysis of the deposited data

Results flagged for a closer look

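In 11 of 80 groups of values, the members in each group of animals, 1 animal lay far from the rest of its group, where chance picks out about 1 in 20, or 4.0. In 9 of the 11 it was kidney disease 6, and in the other two wild type 7. Kidney disease 6 was the lowest of its group in Obsl1 (137 CPM, others 163 to 179), Unc45b (153, others 181 to 189.4), Nebl (328, others 409 to 456), Synpo2l (109, others 159 to 193.9) and Flnc (687, others 782 to 852). It was the highest in Tpm1 (10337 CPM, others 6993 to 8217), Myot (85.2, others 51.8 to 64.4), Pdlim1 (66.1, others 44.5 to 51.6) and Pdlim5 (494, others 329 to 399.98). Wild type 7 had the highest Myom2 of its group (2388 CPM, others 1318 to 1774) and the lowest Cryab (853 CPM, others 1122 to 1334). Kidney disease 6 was also the library with the lowest sum of atrial markers (35.9 CPM) and the lowest Spearman's rho of deviation with exon length (-0.54 over 37 members). The members' values share an animal in each case, so the 11 are not independent of each other.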

How the results depend on the processing

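Over 28 settings the median change of the members ran from -0.09 to 0.02, and each value lay within 0.092 (the pooled SD of the animals' own medians) of the reported one. That width is larger than the reported median of -0.07 itself. A median of opposite sign can therefore lie within it, as did the 0.02 with the mitochondrial share as a term. Of the members 0 were higher in each of the 28 settings, and 2 were lower with DESeq2, 1 with the atrial score as a term and 0 to 2 with 1 library left out. Of all genes tested 0.811% were higher and 0.473% lower. The shares, higher then lower, were 0.438% and 0.163% of 39764 genes without a filter, 1.42% and 1.05% of 14656 with a minimum of 1 CPM in 7 libraries, and 1.11% and 0.922% with the offset for gene length. They were 0.512% and 0.343% with the mitochondrial share as a term, 0.00483% and 0.029% (1 gene and 6) with the library total as a term, and 1.64% and 0.932% with the atrial score as a term. DESeq2 gave 2.21% and 1.53%, and leaving out the libraries poorest in atrial transcripts 0.283% and 0.153%. With 1 library left out, 0.325% to 0.958% were higher and 0.146% to 0.939% lower.

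Some changes switched sign, none of them past the threshold, among them that of Pdlim3, the most positive of the members. With the mitochondrial share as a term Pdlim3 was at -0.15, Mybpc3 at 0.024, Tcap at 0.46, Fhl2 at 0.35, Tpm2 at -0.41 and Myom2 at -0.065. With the library total as a term Mybpc3 was at 0.013, Ankrd1 at 0.21, Tcap at 0.25 and Tpm2 at -0.17. Myom2 was at -0.0047 with the atrial score as a term. With the offset for gene length Tnni3 was at -0.022, Tnnc1 at -0.041 and Ttn at 0.011, and without the libraries poorest in atrial transcripts Tnni3 was at -0.021 and Tnnc1 at -0.049. With 1 library left out, the range included 0 for Ankrd1 (-0.14 to 0.025), Fhl2 (-0.12 to 0.060), Myom2 (-0.040 to 0.13), Tcap (-0.22 to 0.11), Tnnc1 (-0.074 to 0.068), Tnni1 (-0.55 to 0.17), Tnni3 (-0.045 to 0.048) and Tpm1 (-0.0089 to 0.10). The cause of these shifts was not tested.

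Both groups share replicate numbers 1 to 7, but nothing ties animals of the same number. Their deviations correlated between -0.196 and 0.416 over the 7 numbers, and 2 of 7 animals correlated best with their own number. With the replicate number as a block and wild type 8 left out, 0.321% of genes were higher and 0.243% lower and no member passed. Depth limits Ankrd2 and Myoz1, whose lowest libraries held 6 and 0 counts. For the other members the spread between animals limits the intervals.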
